A study of Homo sapiens with 7 samples.

Results

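Clone KO1 is an ASH1L knockout clone of BHT-101, a cell line from a human anaplastic thyroid cancer, in which both alleles carry a premature stop codon after residue 413 of the ASH1L protein. It is 1 of 4 knockout clones and 1 of the 7 RNA sequencing libraries of the series, and was compared with 3 libraries of the wild-type parent line (WT1, WT2 and WT3), labelled as biological replicates. Of the other clones, KO2 stops after residue 610 and KO3 after residue 2129 on both alleles, and KO4 stops after residue 2169 on one allele and after residue 2174 on the other. All cells were cultured in DMEM with serum, and no treatment or time is given. Each clone is 1 library of 1 clonal line, so what the ASH1L stop codon did and what distinguishes 1 clone from the uncloned parent cells cannot be told apart in KO1, and a clone grown out with an intact ASH1L gene is not analysed here.

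ASH1L is a large histone methyltransferase of the Trithorax group, which marks nucleosomes on lysine 36 of histone H3 and counters Polycomb silencing at developmental genes. Its catalytic SET domain lies in the C-terminal part of the protein. Several of the genes described here belong to the gut endoderm and its derivatives: HNF4A is a transcription factor of liver, pancreas and intestine that sustains genes of plasma proteins, and SPDEF with AGR2 marks mucus-secreting epithelia.

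The values are log2 RPKM (reads per kilobase of gene, scaled to library size), a scale on which levels of different genes can be compared per length. Of 13142 genes in the table, 11154 had a log2 RPKM above 0 in at least 3 of the 7 libraries and were tested. Effective library sizes lay between 44030000 and 70410000 reads, with 49010000 for KO1. Whether counting used strand is not given, so where genes overlap their reads may be mixed. The deposited values gave back whole reads for 92.5% of the genes with a known length, so read numbers are quoted for those genes. A gene was called when its adjusted p in limma (Benjamini-Hochberg) was under 0.05. With 1 library the spread comes from the WT samples alone, and p-values measure only how far KO1 lies from 3 cultures of the parent line. An exact permutation test of 1 library against 3 cannot go below p = 0.25. The other 3 clones differed among themselves by a median SD of 0.281, against 0.101 among the WT samples. For this reason the adjusted p with the clones' spread added to that of WT (pooled-spread adjusted p) is given where it ends a call.

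ASH1L itself (ENSG00000116539, GRCh38 chromosome 1, 155335268 to 155562807, minus strand) was still transcribed in KO1. Its level was 3.34, 3.30 and 3.22 log2 RPKM in the WT samples, 2.69 in KO1, and 2.54, 2.42 and 3.74 in KO2 to KO4. KO1 therefore lay below all WT samples, between KO2 and KO4, and held 4197 reads of the gene. The log2 difference from WT was -0.60 (SE 0.11, n = 1 against 3, limma adjusted p = 0.00537), and the pooled-spread adjusted p was 0.481. The 129 tested genes within 5 Mb of ASH1L had a median difference of -0.37 in KO1, and after subtraction of the neighbours' shift the difference was -0.23 (limma adjusted p = 0.143). A gene-level read count does not show a stop codon, so these values do not check the label.

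KO1 differed from WT in 4930 tested genes, of which 2142 were higher and 2788 lower, that is 19.2% and 25.0% of those tested. With each library's median set equal, the split became 2750 higher and 2437 lower, and with quantile normalization 2569 higher and 2244 lower. With the clones' spread added, 104 genes (0.932%) stayed higher and 420 (3.77%) lower. Without WT2, 1151 were higher and 1934 lower. Among the tested genes, large losses outnumbered large gains: 287 genes (2.57%) were lower by 8-fold or more and 42 (0.377%) higher by 8-fold or more. Among those 287 genes, 20 had no read in KO1 and were lower by at least 27-fold when set against 3 reads in that library. KO1 was below all 6 other libraries in 2628 genes (23.6%) and above all 6 in 2562 (23.0%). Among tested genes, 114 lay at least 8-fold below each of the 6 other libraries, and 0 lay as far above. Genes that were above 0 log2 RPKM in all WT samples and at or below -3 numbered 143 in KO1, and 8, 37 and 25 in KO2 to KO4. The filter is uneven here, because a gene expressed in KO1 alone cannot be above 0 in 3 libraries and is never tested. It takes out large gains of KO1 alone and not large losses, so the counts at large distances do not compare the sides evenly. Outside the tested set, BACE2 stood at 2.91 log2 RPKM in KO1 and at -1.64 or lower in the 6 other libraries.

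**Figure D1:**
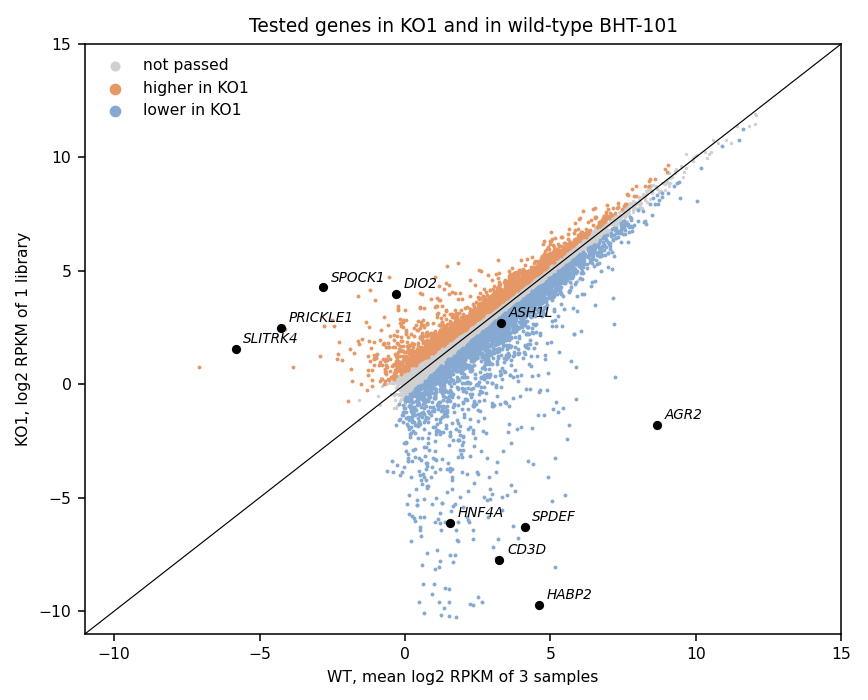
Each point is 1 of the 11154 tested genes, with the mean log2 RPKM of the 3 WT samples on the x axis, log2 RPKM of the KO1 library on the y axis and the diagonal of equal levels. Orange and blue mark genes called higher or lower, and the cloud of blue points far below the diagonal holds AGR2, SPDEF, HNF4A, CD3D and HABP2, while SPOCK1, PRICKLE1 and SLITRK4 lie far above it.

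The endodermal transcription factors were split in KO1: HNF4A, CEBPA and PROX1 were far below WT, FOXA2 and HNF4G were lower but clearly expressed, and SOX9 was higher. HNF4A (chromosome 20, 44355700 to 44434596, plus strand), a nuclear receptor, had 1.64, 1.52 and 1.47 log2 RPKM in WT, -6.10 in KO1 (5 reads), and 3.41, -0.65 and -0.04 in KO2 to KO4. KO2 was above WT, KO3 and KO4 were lower, and KO1 was lowest (log2 difference from WT -7.65, SE 0.20, limma adjusted p = 1.32e-06). CEBPA, a factor of hepatocytes and myeloid cells, stood at 2.71 to 2.88 log2 RPKM in WT, -2.14 in KO1 and 5.90, 1.69 and 1.65 in the other clones, with a pooled-spread adjusted p of 0.122. PROX1, a factor of liver and lymphatic development, stood at 0.41 to 0.98, -3.72 and 1.68, 0.05 and -0.81. FOXA2, a pioneer factor of the endoderm, kept a clear level of 2.52 log2 RPKM in KO1, against 4.18 to 4.28 in WT and 3.73, 4.32 and 3.69 in KO2, KO3 and KO4 (limma adjusted p = 4.46e-05). HNF4G fell by 1.92 on the log2 scale.

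SOX9, a factor of progenitor and duct cells, went the other way: it stood at 1.06, 1.22 and 1.01 log2 RPKM in WT, 3.81 in KO1, and 2.12, 2.41 and 3.23 in the other clones. All 4 clones were above WT and KO1 was the highest (6.54-fold above WT, limma adjusted p = 2.00e-05). GATA6 rose by 0.54 on the log2 scale, and its pooled-spread adjusted p was 0.128. Of the 13 tested factors in this list 3 were higher and 8 lower, with a median log2 difference of -1.06, where the median over all tested genes was 0 to 2 decimals. The medians for KO2, KO3 and KO4 were 0.57, -0.45 and -1.0.

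**Figure D2:**
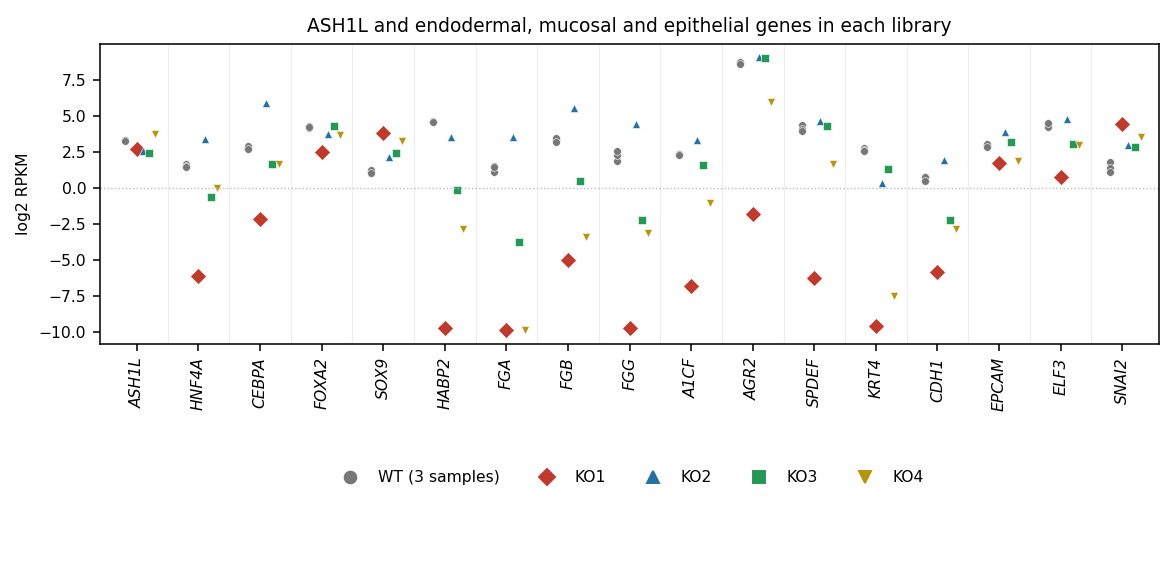
Log2 RPKM (y axis) of ASH1L and 16 endodermal, mucosal and epithelial genes in each library; grey circles are the 3 WT samples and coloured symbols the single library of each clone. KO1 (red diamonds) is lowest for HNF4A, CEBPA, AGR2 and SPDEF, shares the FGA level of KO4 at -9.84, and is highest for SOX9 and SNAI2.

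Genes of plasma proteins made by liver were also lost. Of 19 tested genes for hepatic and gut-endoderm secreted proteins, 0 were higher and 16 lower, with a median log2 difference of -6.84. The same median was obtained with the 5 genes without a read in KO1 set to the bound that 3 reads give. In KO2 the median was 2.15, in KO3 -1.99 and in KO4 -2.53. The summed RPKM of the list was 108.6 to 114.7 in WT, 18.08 in KO1, and 302, 41.92 and 26.08 in KO2 to KO4, so KO2 was above WT and the other 3 clones below it. The lower call held for 5 of the 16 genes with the clones' spread added.

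HABP2, a plasma serine protease, had 4.66, 4.58 and 4.57 log2 RPKM in WT, -9.73 in KO1, the value of a gene with no read, and 3.55, -0.11 and -2.83 in KO2, KO3 and KO4. The WT libraries held 5169 to 5518 of its reads and KO1 0, so it was at least 1451-fold lower (limma adjusted p = 7.46e-08). No read was thus found in KO1, and all other clones were below WT, KO2 the least.

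The fibrinogen chains, which join into the clotting protein of plasma, moved together. FGB stood at 3.35, 3.45 and 3.20 log2 RPKM in WT, -4.98 in KO1, and 5.51, 0.45 and -3.38 in the other clones. FGG went from 723 to 1242 reads in WT to 0 in KO1 and was at least 281-fold lower, and FGA from 474 to 731 reads to 0 and was at least 167.5-fold lower. KO4 also had 0 reads of FGA, KO3 had 13, and KO2 had 2918. The pooled-spread adjusted p was 0.141 for FGB, 0.0574 for FGG and 0.188 for FGA. FGL1 was at least 120.8-fold lower and ITIH2, a chain of the inter-alpha inhibitor of hyaluronan-rich matrix, at least 159-fold lower, with 0 reads each in KO1 and pooled-spread adjusted p of 0.0602 and 0.113.

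Mucosal secretory genes were nearly all lower in KO1. AGR2 (chromosome 7, 16791811 to 16833433, minus strand), a protein disulfide isomerase needed for mucin folding, stood at 8.72, 8.71 and 8.59 log2 RPKM in WT, -1.79 in KO1, and 9.04, 9.04 and 5.95 in KO2 to KO4. KO1 held 40 of its reads against 65553 to 75208 in WT, a 1417-fold lower level (log2 difference -10.47, SE 0.10, limma adjusted p = 7.46e-08, pooled-spread adjusted p = 0.00907). KO4 was lower than WT, and KO2 and KO3 were slightly above it.

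SPDEF (chromosome 6, 34537802 to 34556333, minus strand), the ETS factor of goblet cells, stood at 4.36, 4.06 and 3.93 log2 RPKM in WT, -6.28 in KO1, and 4.62, 4.27 and 1.63 in the other clones. KO1 had 1 read against 1737 to 2211 in WT, a ratio of 1630 with an exact 95% counting interval of 292.5 to 64400. TFF1, a trefoil peptide secreted with mucus, had 6.10, 5.82 and 5.71 log2 RPKM in WT, -0.65 in KO1, and 5.0, 3.52 and 2.73 in the other clones. All clones were below WT for this gene and KO1 by far the lowest (92.1-fold below WT). VSIG1, a junction protein of gastric epithelium, had 3 reads in KO1 against 1392 to 1789 in WT, a ratio of 444.3 (151.9 to 2155). S100P, a calcium-binding protein of secretory epithelia, had 78 against 7618 to 16666 (pooled-spread adjusted p = 0.0716).

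Of 15 tested mucosal genes 1 was higher and 14 lower, with a median log2 difference of -5.0, against 0.37, -1.32 and -1.23 in KO2, KO3 and KO4. KO1 was below all 6 other libraries in 13 of the 15 genes, where 23.6% of all tested genes were. The summed RPKM of the list was 760.9 to 828.3 in WT, 21.41 in KO1, and 1109, 636.1 and 194.5 in KO2 to KO4. The lower call held for 7 of the 14 genes with the clones' spread added. The only higher member was ANXA10, an annexin of gastric epithelium, which stayed below 0 log2 RPKM in KO1 (-0.74).

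Epithelial junction and keratin genes fell in part. Of 33 tested, 21 were lower and 6 higher, with a median log2 difference of -1.18 against 0.35, -0.20 and -0.82 in KO2, KO3 and KO4. With the clones' spread added 3 of the 21 lower calls and 0 of the 6 higher calls held. KRT4, a keratin of stratified mucosa, had 1140 to 1309 reads in WT, 0 in KO1 and 1 in KO4, and was at least 339.9-fold lower in KO1 (pooled-spread adjusted p = 0.0778). CDH1 (E-cadherin) was low in WT at 0.75, 0.78 and 0.47 log2 RPKM, and stood at -5.86 in KO1 and 1.97, -2.20 and -2.83 in KO2 to KO4 (limma adjusted p = 6.46e-06, pooled-spread adjusted p = 0.0848). ELF3, an ETS factor of epithelia, stood at 4.2 to 4.48 log2 RPKM in WT, 0.78 in KO1 and 4.74, 3.05 and 2.99 in the other clones. The polarity gene CRB3 fell by 4.93 and the protease inhibitor gene SPINT1 by 4.18 on the log2 scale, with pooled-spread adjusted p of 0.0585 and 0.0896.

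Other epithelial genes kept clear levels. EPCAM, a surface adhesion molecule of epithelia, still stood at 1.71 log2 RPKM in KO1 against 2.85 to 3.04 in WT. KRT8 stood at 5.63 against 7.07 to 7.31, KRT19 at 6.26 against 7.21 to 7.61, and KRT7 at 6.71 against 6.22 to 6.60 without passing the test. The pooled-spread adjusted p was 0.303 for EPCAM, 0.137 for KRT8 and 0.325 for KRT19. Among 12 tested genes of epithelial defence 10 were lower and 2 higher. HHLA2, an immune checkpoint ligand, had 996 to 1239 reads in WT and 0 in KO1 (at least 299.6-fold lower), with 4696, 48 and 644 in KO2, KO3 and KO4. DEFB1, a constitutive defensin of epithelia, had 0 reads in KO1 and in KO3, 181 in KO2 and 94 in KO4, against 304 to 551 in WT (pooled-spread adjusted p = 0.114). SPINK1, a trypsin inhibitor, had 2 reads in KO1 against 176 to 189 in WT, a ratio of 75.3 with an exact counting interval of 20.7 to 623 (pooled-spread adjusted p = 0.0832). The neighbouring and near-identical SERPINB3 and SERPINB4 were also lower than in WT, but reads of such copies can be shared. Their pooled-spread adjusted p was 0.293 and 0.341, and KO3 was below KO1 for both.

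Mesenchymal genes did not move as a block. Of 18 tested genes of the epithelial to mesenchymal transition 9 were higher and 5 lower, with a median log2 difference of 0.36 against -0.70, -0.25 and 0.36 in KO2, KO3 and KO4. SNAI2, a zinc-finger repressor of epithelial genes, stood at 1.77, 1.36 and 1.09 log2 RPKM in WT, 4.46 in KO1, and 3.00, 2.82 and 3.52 in KO2 to KO4, so all clones exceeded WT and KO1 the most (8.27-fold). Its relative SNAI1 did the reverse, with 2.28, 2.12 and 2.26 in WT, -1.55 in KO1, and 2.09, 1.94 and 1.34 in the other clones. Only KO1 was at this low level (28 reads, 13.7-fold below WT, limma adjusted p = 5.41e-06).

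TWIST1 stood at 1.75 log2 RPKM in KO1 against 0.00 to 0.30 in WT, with 1.37 in KO3, 1.59 in KO4 and -0.77 in KO2 (pooled-spread adjusted p = 0.311). ZEB1 stood at 2.27 to 2.40 in WT and 2.53 in KO1 and did not pass the test. CDH11, a mesenchymal cadherin, fell from 2.11 to 2.33 log2 RPKM in WT to -3.18 in KO1, while KO2, KO3 and KO4 stood at 2.54, 0.82 and 4.26. FN1 (fibronectin) was at 5.07 in KO1 against 7.04 to 7.22 in WT, and S100A4 at 8.09 against 9.99 to 10.12. The pooled-spread adjusted p of these was 0.126 and 0.114.

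Matrix genes changed in both directions, with 10 of 34 tested higher and 19 lower, against 19.2% and 25.0% of all tested genes. HAPLN1, which links hyaluronan to proteoglycans, stood at 1.36 to 1.89 log2 RPKM in WT and -5.38 in KO1, and at -4.30, -2.50 and -2.98 in KO2, KO3 and KO4: it was lost in all clones. The laminin chain LAMA4 stood at 1.26 to 1.30 in WT, -5.22 in KO1 and 1.60, -3.46 and -0.40 in the other clones (pooled-spread adjusted p = 0.0796). Biglycan (BGN) had 2.31, 2.40 and 2.71 in WT, -3.87 in KO1, and 1.58, 0.61 and 0.21 in the other clones. In contrast COL5A1, a fibrillar collagen chain, reached 4.03 log2 RPKM in KO1 and 4.05 in KO4, against 0.39 to 0.58 in WT and 2.05 and 1.82 in KO2 and KO3 (pooled-spread adjusted p = 0.059).

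Of 24 tested heparan sulfate enzymes and proteoglycans 13 were higher and 5 lower, with a median log2 difference of 0.41. With the clones' spread added 1 of the 13 higher calls and 0 of the 5 lower calls held. SPOCK1, a testican proteoglycan of the matrix, stood at -2.47, -3.05 and -2.94 log2 RPKM in WT, 4.27 in KO1, and -0.58, 3.98 and 3.52 in KO2 to KO4. KO1, KO3 and KO4 reached a similar level (KO1 136-fold above WT, limma adjusted p = 1.06e-05, pooled-spread adjusted p = 0.0608). The sulfatase SULF2 stood at 2.45 in KO1 and at 3.44, -5.16 and 4.87 in the other clones, against -4.44 to -3.75 in WT (pooled-spread adjusted p = 0.294). SDC1 (syndecan-1), the main proteoglycan of epithelial surfaces, fell by 2.56 on the log2 scale in KO1, whose 1.31 log2 RPKM was close to the 1.33 of KO4 and below the 3.76 to 3.98 of WT (pooled-spread adjusted p = 0.2).

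In the WNT pathway the receptor LGR4 and the ubiquitin ligase RNF43, which act in the same R-spondin circuit, were both lost in KO1. LGR4 stood at 5.51, 5.46 and 5.29 log2 RPKM in WT, -1.03 in KO1, and 6.15, 4.83 and 4.49 in KO2 to KO4. That was an 87.5-fold lower level (152 reads against 14840 or more in WT, limma adjusted p = 4.00e-07, pooled-spread adjusted p = 0.00476). RNF43 stood at 2.19, 2.31 and 2.01 in WT, -1.98 in KO1, and 2.20, 2.66 and 1.41 in the other clones, 17.8-fold below WT. For both genes KO1 stood far below the other 6 libraries.

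PRICKLE1, a planar polarity protein, rose from -4.67 to -4.01 log2 RPKM in WT to 2.48 in KO1, and stood at -1.52, 1.48 and 1.37 in KO2, KO3 and KO4. The receptor FZD2 went from -1.80 to -1.22 in WT to 2.00 in KO1. Over 27 tested genes of the pathway 9 were higher and 11 lower, where 19.2% of all tested genes were higher and 25.0% lower. The median log2 difference of -0.37 turned to positive values, up to 0.18, under 2 of 10 alternative settings.

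In the TGF-beta and BMP pathway, 10 of 30 tested genes were lower and 6 higher, with a median log2 difference of -0.18. Among all tested genes 25.0% were lower and 19.2% higher. INHBB, the inhibin and activin beta B chain, stood at 3.00, 2.91 and 2.24 log2 RPKM in WT, -1.48 in KO1, and 1.48, 2.35 and 2.05 in the other clones (18.3-fold below WT). The ligand BMP2 fell from 4.15 to 4.57 in WT to 0.35 in KO1, with 3.72, 2.29 and 2.77 in the other clones. ID2, a target of BMP signals, stood at 0.41 in KO1 against 3.72 to 4.31 in WT and 4.93, 4.56 and 3.04 in the other clones. The inhibitory SMAD6 and the co-receptor TGFBR3 each fell by 2.67 on the log2 scale.

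Among receptor tyrosine kinases and ligands, 10 of 31 tested were higher and 14 lower. The median log2 difference of the list was -0.13, and 19.2% of all tested genes were higher and 25.0% lower. PDGFRA, a receptor of mesenchymal cells, stood at 3.09, 3.22 and 3.33 log2 RPKM in WT, -6.82 in KO1, and 2.37, 2.37 and -1.75 in the other clones. KO1 held 4 of its reads against 4665 to 5844 in WT (1051-fold lower), and KO4 204. The EGF receptor ligand AREG was highly expressed in all other libraries, at 7.05, 7.27 and 7.10 in WT and 6.41, 6.02 and 6.25 in KO2, KO3 and KO4, and stood at 3.82 in KO1 (9.99-fold below WT, limma adjusted p = 3.94e-06, pooled-spread adjusted p = 0.0017). ERBB3 fell by 4.53 and FGFR4 by 3.31 on the log2 scale, with both below WT in KO4 and above WT in KO2, and pooled-spread adjusted p of 0.208 and 0.212. GAS6, the ligand of the receptor AXL, rose from -0.77, -0.61 and -0.30 in WT to 4.73 in KO1, with -0.47, 1.61 and 3.29 in the other clones. AXL itself rose from 4.57 to 4.95 in WT to 6.32 in KO1 (2.91-fold), above the 5.08 to 5.32 of the other clones.

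Of 25 tested genes of MAPK output and feedback 7 were higher and 8 lower, against 19.2% and 25.0% of all tested genes. The median log2 difference of this list was -0.12. SPRY1, a feedback inhibitor, stood at 2.78, 2.88 and 2.89 log2 RPKM in WT, 1.07 in KO1, and 2.56, 3.03 and 2.79 in the other clones, so KO1 alone was low (3.43-fold). FOSL1, an AP-1 subunit, rose to 7.09 in KO1 from 5.65 to 6.21 in WT (pooled-spread adjusted p = 0.211). Of the YAP and TEAD targets, 7 of 30 were higher and 10 lower, with a median log2 difference of 0.07.

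Inflammatory chemokine and cytokine genes were lower in 13 and higher in 4 of 22 tested, with a median log2 difference of -1.11 against 0.13, -0.24 and -1.20 in KO2, KO3 and KO4. TSLP, an epithelial cytokine, stood at 1.39 to 1.71 log2 RPKM in WT and -3.69 in KO1, and CX3CL1, a membrane-bound chemokine, at 1.63 to 2.18 and -3.19 (pooled-spread adjusted p = 0.0741). The adhesion molecule VCAM1 stood at 2.85, 3.12 and 3.22 in WT, -0.92 in KO1, and 3.66, 2.83 and 0.61 in the other clones (pooled-spread adjusted p = 0.078). The lower call held for 1 of the 13 genes, TSLP, with the clones' spread added. Among interferon-stimulated genes 6 of 38 were higher and 12 lower, against 19.2% and 25.0% of all tested genes. The median log2 difference of this list was -0.02.

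Targets of the antioxidant factor NRF2 were lower in 17 and higher in 2 of 30 tested, with a median log2 difference of -0.56 against 0.20, -0.31 and -0.25 in the other clones. With the clones' spread added 2 of the 17 lower calls and 0 of the 2 higher calls held. The largest falls were in the aldo-keto reductase AKR1B10 and the exporter ABCC2, which is also a hepatocyte canalicular gene. AKR1B10 stood at 5.69, 5.71 and 5.32 log2 RPKM in WT, -2.40 in KO1, and 6.40, 1.38 and 1.61 in the other clones (16 reads in KO1, 250.6-fold below WT, pooled-spread adjusted p = 0.0595). ABCC2 stood at 5.24, 5.17 and 5.18 in WT, -0.77 in KO1, and 6.10, 4.88 and 3.54 in the other clones (62.5-fold below WT). AKR1C1, AKR1C2 and AKR1C3 were all lower as well (pooled-spread adjusted p of 0.121 to 0.224), but they are near-identical copies whose reads can be assigned to one another. Without those 5 genes the largest fall in the list was 2.5 on the log2 scale (ABCC3).

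Of 36 tested genes of ATF4 and the unfolded protein response 1 was higher and 10 lower, with a median log2 difference of -0.64 against -0.53, -0.15 and -0.67 in KO2, KO3 and KO4. XBP1, a factor of secretory capacity, stood at 5.43 to 5.97 log2 RPKM in WT and 4.28 in KO1. PDIA4, a folding enzyme of the endoplasmic reticulum, stood at 8.23 to 8.35 and 7.05, while KO3 reached 9.50. TRIB3, a target of ATF4, ranged from 5.86 to 7.24 among the WT samples and stood at 4.57 in KO1. The 10 lower calls stand beside 25.0% of all tested genes called lower, and none of the 10 held with the clones' spread added. In cholesterol and fatty acid synthesis 3 of 37 tested were higher and 14 lower, against 19.2% and 25.0% of all tested genes. FADS2, a fatty acid desaturase, stood at 4.14, 4.37 and 4.60 in WT, 2.32 in KO1, and 2.29, 3.09 and 3.12 in the other clones, so all clones were below WT. INSIG1, which restrains sterol synthesis, stood at 6.41 to 6.61 in WT, 5.21 in KO1, and 6.67, 5.90 and 6.53 in the other clones (pooled-spread adjusted p = 0.0599).

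Genes of the G2 and M phases moved the other way, by small amounts. Of 52 tested G2 and M phase genes 26 were higher and 3 lower, with a median log2 difference of 0.41 against -0.03, 0.13 and 0.20 in KO2, KO3 and KO4. KO1 was above all 6 other libraries in 30 of the 52, where 23.0% of all tested genes were. CCNA2 (cyclin A2) stood at 5.67, 5.60 and 5.24 log2 RPKM in WT, 6.22 in KO1, and 5.55, 6.04 and 5.83 in the other clones, and the checkpoint kinase BUB1B at 4.70, 4.67 and 4.35 in WT, 5.28 in KO1, and 4.74, 4.92 and 4.95. Log2 differences in the list lay between -0.72 and 0.74. None of the 26 higher calls held with the clones' spread added, and 14 held after the neighbours' shift was subtracted. Of 49 tested DNA replication genes 9 were higher and 5 lower, where 19.2% of all tested genes were higher and 25.0% lower. With the clones' spread added, 0 of the 9 higher and 2 of the 5 lower calls held. After the neighbours' shift was subtracted, 3 were higher and 1 lower.

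**Figure D3:**
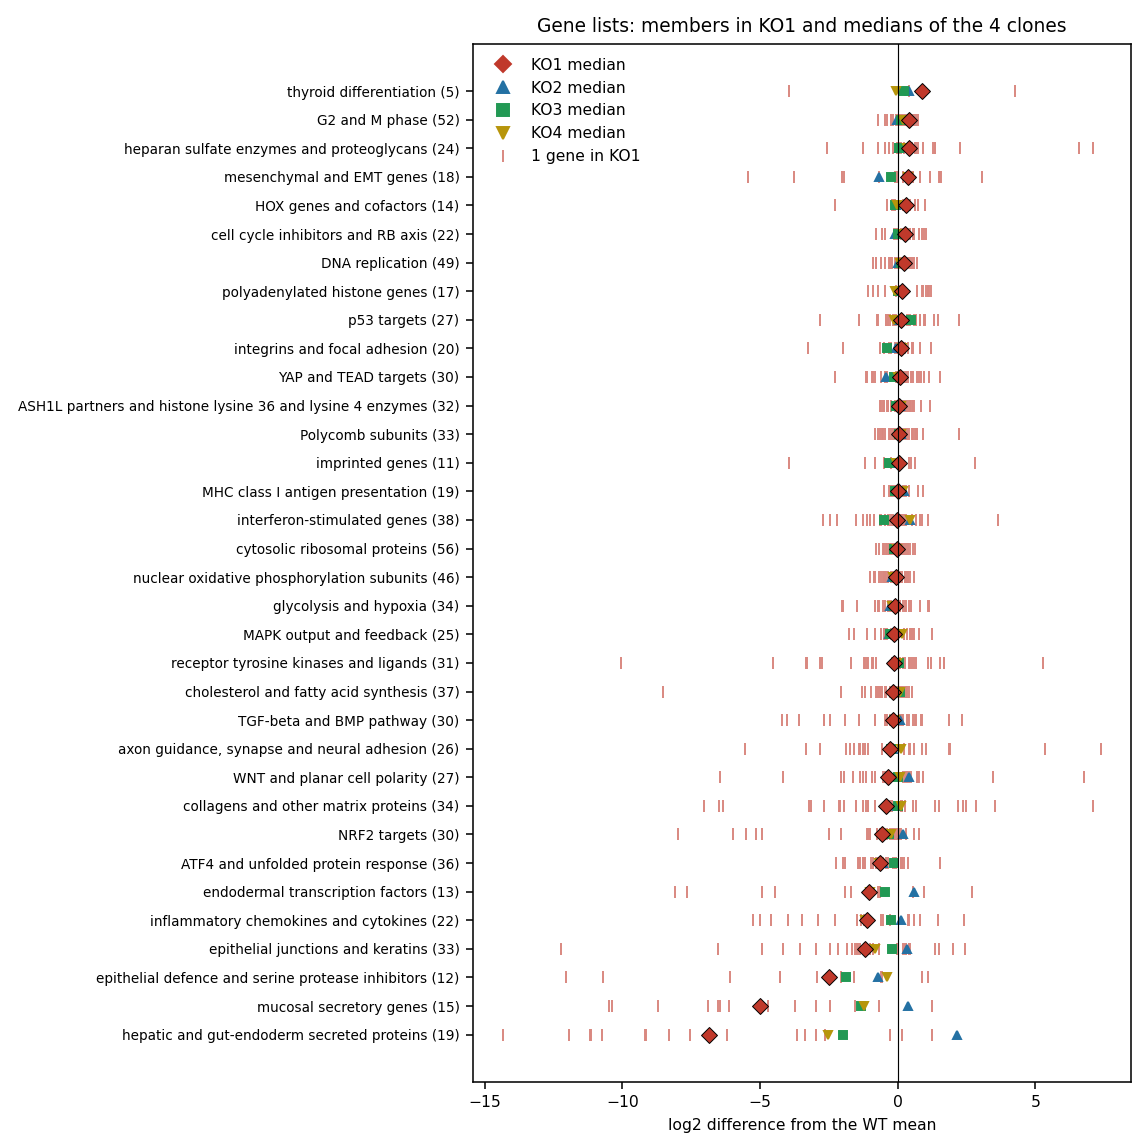
Log2 difference from the WT mean (x axis) for the gene lists with at least 5 tested genes (y axis, number tested in parentheses), ordered by the KO1 median; ticks are single genes in KO1, red diamonds the KO1 medians and the other symbols the medians of KO2, KO3 and KO4. The KO1 medians of hepatic and gut-endoderm proteins (-6.84) and mucosal secretory genes (-5.0) stand apart, followed by epithelial defence (-2.51), and the other lists lie between -1.18 and 0.88.

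Genes of ASH1L's own biology showed small median differences. Of 32 tested ASH1L partners and histone lysine 36 and lysine 4 enzymes, ASH1L included, 8 were higher and 7 lower, with a median log2 difference of 0.05. PSIP1, a reader of methylated lysine 36, rose from 3.02 to 3.03 log2 RPKM in WT to 4.18 in KO1, with 3.38, 2.58 and 3.62 in the other clones (pooled-spread adjusted p = 0.124). WDR5, a subunit of lysine 4 methyltransferases, rose by 0.84 on the log2 scale, and its neighbours within 5 Mb were shifted by 0.55. Of 33 Polycomb subunits 10 were higher and 6 lower, with a median of 0.04. Beside both lists, 19.2% of all tested genes were higher and 25.0% lower. PCGF5, a subunit of a variant repressive complex, stood at 0.30 to 0.40 in WT, 2.60 in KO1 and 1.42, -0.69 and 1.36 in the other clones (pooled-spread adjusted p = 0.153).

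Only 14 of 43 HOX genes and cofactors were expressed highly enough to be tested, and 4 of them were higher and 2 lower. Their median log2 difference was 0.28, and 19.2% of all tested genes were higher and 25.0% lower. HOXB8 stood at 0.55 to 0.91 log2 RPKM in WT, -1.60 in KO1, and -0.64, -1.13 and -1.71 in KO2 to KO4, so all clones were below WT (pooled-spread adjusted p = 0.0673). HOXB7, HOXB4 and HOXB2 rose in KO1 by 0.62, 0.61 and 0.45 on the log2 scale, with pooled-spread adjusted p of 0.107, 0.252 and 0.294. PBX3, a HOX cofactor, rose by 0.98.

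Thyroid identity was nearly absent in all libraries. Of 15 thyroid follicular markers 3 had a value in the table: PAX8 was at -2.97 to -2.23 log2 RPKM in WT and -5.02 in KO1, below the level tested, and DIO2 and HHEX were tested. DIO2, the deiodinase that activates thyroid hormone and is also made outside the thyroid, stood at 0.23, -0.22 and -0.95 in WT, 3.96 in KO1, and -3.24, 1.29 and 0.90 in the other clones. KO1 was the highest library by a wide margin (19.3-fold above WT, limma adjusted p = 4.06e-04, pooled-spread adjusted p = 0.181). HHEX rose by 0.94 on the log2 scale (pooled-spread adjusted p = 0.464). THRB, a thyroid hormone receptor, stood at 1.86 to 1.89 in WT, -2.06 in KO1, and 1.78, 1.43 and -0.30 in the other clones.

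Rises over WT were ranked among tested genes only, so ARAP2 and COL12A1, untested and 8.63 and 8.13 log2 units above WT, could not enter. The 12 tested genes with the largest called rise, a proper symbol and at least 1 log2 RPKM in KO1 reached 1.56 to 4.73 there. Their WT means were below 0. Besides SPOCK1, PRICKLE1, SULF2, GAS6 and DIO2 they included SLITRK4, KRT17, CADM1, IGFBP7, MRAS and PMEPA1. KRT17, a keratin of basal and stressed epithelium with several near-identical pseudogenes, stood at -1.87, -1.46 and -1.48 in WT, 3.90 in KO1, and -1.86, 0.48 and 1.46 in KO2 to KO4. The adhesion molecule CADM1 stood at -2.87 to -2.25 in WT, 2.83 in KO1 and -1.93, 0.37 and 1.46 in the other clones. KO3 and KO4 were thus above WT for both genes and KO2 was not clearly so.

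IGFBP7, a secreted IGF-binding protein, stood at -3.15 to -2.51 log2 RPKM in WT, 2.56 in KO1 and 0.56, 2.12 and 1.02, so every clone exceeded WT. PMEPA1, a TGF-beta target and inhibitor, stood at -1.12 to -0.93 in WT, 3.72 in KO1 and -1.04, 0.41 and 3.15. SLITRK4, a neuronal adhesion protein, stood at -6.58 to -5.12 in WT, 1.56 in KO1, and -7.95, 2.09 and 0.85 in the other clones. With the clones' spread added PRICKLE1, KRT17 and IGFBP7 stayed called among these 12, with pooled-spread adjusted p of 0.0379, 0.048 and 0.0129. For the others the pooled-spread adjusted p was 0.059 to 0.311.

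Which changes do the other clones lack? Set against the mean of KO2, KO3 and KO4 (a model with all 7 libraries), KO1 was higher in 5 genes (0.0448%) and lower in 95 (0.852%). All 100 were also called in the same direction against WT, with KO1 outside the range of the 6 other libraries. The count rests on few degrees of freedom and is unstable: it was 0 in each direction with any 1 WT sample left out, 0 in each direction by voom on the recovered reads, 0 with the spread of the 3 clones alone, and 0 higher and 4 lower on the log2(RPKM + 1) scale. It was 21 higher and 258 lower without KO2, 57 and 317 without KO3, and 123 and 451 without KO4. At an unadjusted p under 0.05, 637 genes were higher and 1200 lower.

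Among the genes with the largest lower difference from the other clones, NPC1L1, the intestinal cholesterol transporter, had 869 to 1311 reads in WT, 0 in KO1, and 4805, 341 and 214 in KO2 to KO4 (limma adjusted p against the other clones = 0.0325). FLRT3, an adhesion protein of the FGF and axon guidance systems, had 622 to 1076 in WT, 0 in KO1, and 1488, 313 and 129. ARSE, an arylsulfatase gene of the X chromosome, had 742 to 1227 in WT, 0 in KO1, and 1431, 161 and 159. Each of these transcripts was therefore present in all 6 other libraries and undetected in KO1, where each was at least 248.9-fold below WT.

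AGR2 and SPDEF belong to the same genes, with limma adjusted p against the other clones of 0.0236 and 0.0213. So do NR0B1, an orphan receptor of the X chromosome, with 0 reads in KO1 against 269 to 408 in WT and 27 to 513 in the other clones, and GOLT1A, a Golgi transport protein, with 0 against 119 to 193 and 22 to 212. OR51B4, annotated as an olfactory receptor, stood at 1.43 to 1.78 log2 RPKM in WT, -7.83 in KO1 and -0.99, 1.40 and -0.97 in the other clones. LGR4, RNF43, SNAI1, AREG, INHBB, BGN, SPRY1, ABCC2 and the adhesion molecule ESAM were also lower against the other clones, with limma adjusted p between 0.0106 and 0.0397. HNF4A (0.0936), FOXA2 (0.0761) and TFF1 (0.0612) did not pass.

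Promoters were searched for 2 motifs, chosen with these results known. RefSeq promoters (250 bases before to 50 bases after the transcript start, GRCh38.p14) matched 8323 of the 11154 tested genes and 66 of the 95 genes lower than in the other clones. The AP-1 letters TGACTCA, searched on both strands, occurred in 4.95% of all 35116 promoters in the table, in 3.62% of the 12139 promoters of tested genes and in 9 of the 88 promoters (10.2%) of the genes lower than in the other clones. Overlapping promoters of ARHGDIB held the same site, which was counted for each. By gene the match was in 8 of the 66 (12.1%), against 411 of the 8323 tested genes (4.94%). In the 264 promoters of genes lower than WT by 8-fold or more the share was 7.2%. The HNF4 letters CAAAGTCCA occurred in 0.264% of the promoters of tested genes and in 0 of the 88. In the 264 promoters of genes lower by 8-fold or more they occurred in 2 (0.758%). Among all genes lower than WT the share was 0.228%, and among genes higher than WT 0.416%. Promoters of the hepatic and gut-endoderm list held 0 matches in 18, and those of the mucosal list 1 in 7. These shares describe sequences and no binding was measured. The AP-1 match is shown in capitals for NPC1L1 and RNF43, described above, and for ARHGDIB, chosen after its values were seen, as 50-base stretches on the gene's strand (the reverse complement of the motif in RNF43 and ARHGDIB).
NPC1L1, chr7:44541501-44541550, minus strand: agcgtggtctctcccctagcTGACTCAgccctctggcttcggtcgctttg
RNF43, chr17:58402739-58402788, minus strand: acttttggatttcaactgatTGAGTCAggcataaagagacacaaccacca
ARHGDIB, chr12:14951238-14951287, minus strand: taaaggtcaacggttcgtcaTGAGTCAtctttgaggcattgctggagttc
ARHGDIB stood at 5.87, 5.88 and 5.87 log2 RPKM in WT, 0.77 in KO1, and 4.82, 4.18 and 4.85 in the other clones. KO1 was far below all 6 other libraries (34.5-fold below WT, limma adjusted p against the other clones = 0.00967).

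The 5 higher genes were ANXA3, TPD52, HCN2, STAC and CCNH. ANXA3, an annexin, stood at 1.33, 1.21 and 1.00 log2 RPKM in WT, 4.32 in KO1, and 0.67, 1.65 and 1.86 in the other clones. TPD52, a vesicle traffic protein, stood at 1.19, 0.90 and 0.59 in WT, 3.75 in KO1, and 1.47, 0.91 and 1.43. HCN2, a pacemaker channel, stood at 1.03 to 1.23 in WT, 3.12 in KO1, and 0.47, 1.05 and 1.23. For these genes KO1 was 4.02-fold to 8.78-fold above WT, and the other clones lay within 1 log2 unit of the WT mean. STAC, an adaptor of calcium channels, was raised in every clone, from 0.94 to 1.08 in WT to 2.83, 3.27 and 3.26 in KO2, KO3 and KO4 and 4.72 in KO1 (12.9-fold above WT). CCNH, a subunit of the CDK-activating kinase and of TFIIH, stood at 2.51 to 2.67 in WT, 3.46 in KO1, and 2.17 to 2.34 in the other clones.

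**Figure D4:**
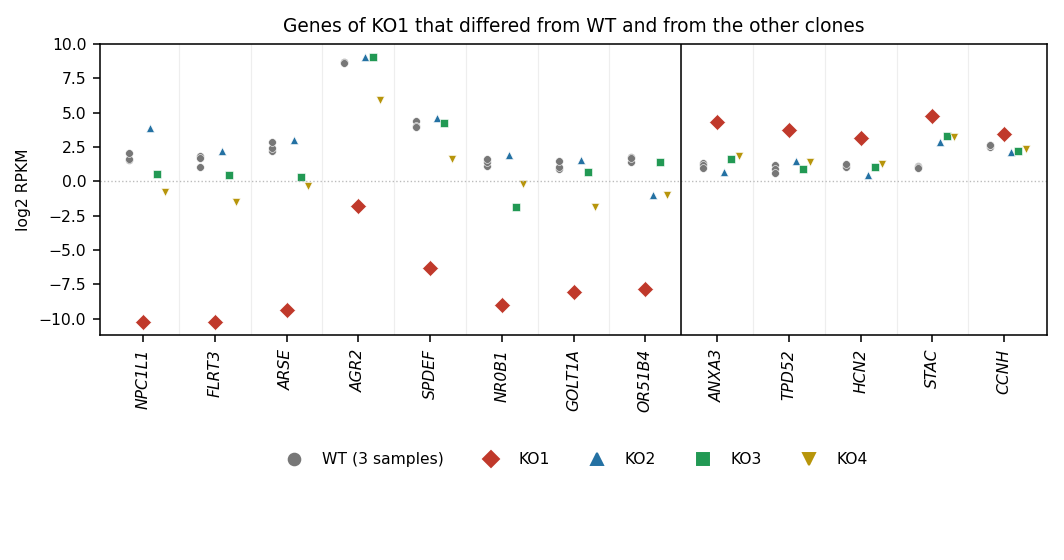
Log2 RPKM (y axis) in each library of 8 of the genes with the largest lower difference from the other clones (left of the line) and of the 5 genes higher than in the other clones (right); grey circles are the 3 WT samples and coloured symbols the single clone libraries. KO1 (red diamonds) lies outside the other 6 libraries in all 13 genes shown, by far more on the lower side than on the higher.

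Part of the smaller differences followed chromosome position. Gene medians of whole chromosomes in KO1 ranged from -0.50 on X and -0.38 on chromosome 7 to 0.48 on chromosome 9, where the WT samples lay between -0.06 and 0.04 on every chromosome. KO3 had the same X median (-0.50), and KO2 and KO4 were above WT on chromosome 9 as well (0.38 and 0.29). Of 212 windows of 10 Mb with at least 20 tested genes, 38 had a median below -0.3 and 22 above 0.3 in KO1. The low windows held 16.1% of positioned genes and 40.5% of the genes called lower, and the high windows 12% of genes and 30.5% of those called higher. DNA copy number was not measured, and its part in these values was not tested.

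The strong losses were less tied to these windows. Of 263 positioned genes lower by 8-fold or more, 56 (21.3%) lay in low windows, and 258 were still called lower after the neighbours' shift was subtracted. AGR2 had neighbours shifted by -0.24, SPDEF by -0.05, and HNF4A by 0.18, all small beside their own differences. Windows low in KO1 while no other clone was below -0.15 numbered 7, with 342 genes: on chromosome 1 (140 to 150 and 180 to 190 Mb), chromosome 6 (0 to 10 Mb), chromosome 7 (150 to 160 Mb) and chromosome 16 (0 to 30 Mb). Of the 90 positioned genes that differed from the other clones, 7 lay in these windows, against 342 of all 10729 positioned genes tested. The 38 low windows of KO1 held 22 of the 90, against 1725 of the 10729. Both shares of the 90 genes were above those of all positioned genes, and this difference was not tested.

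**Figure D5:**
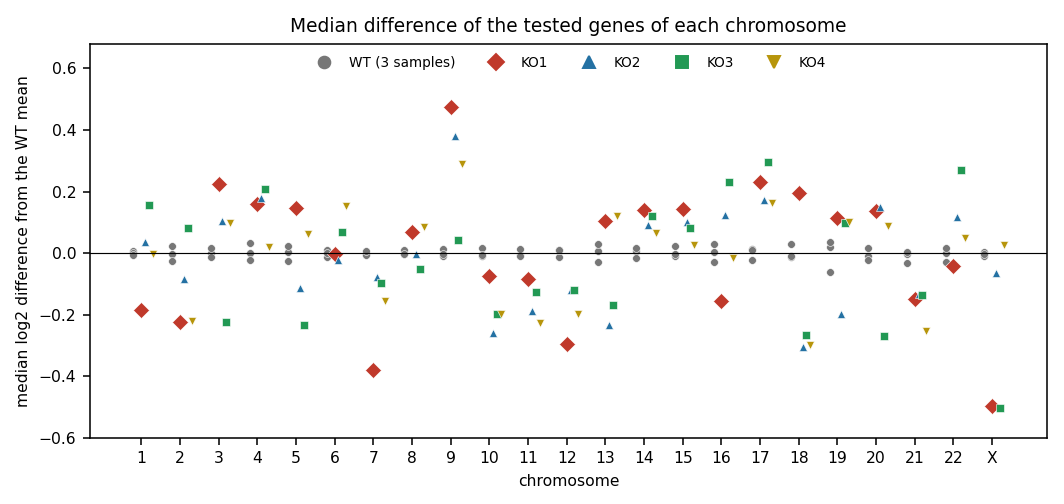
Median log2 difference from the WT mean (y axis) of the tested genes of each chromosome (x axis), in each library after centring on the library's own median; grey circles are the 3 WT samples and coloured symbols the clones. KO1 (red diamonds) is below all other libraries on chromosomes 1, 2, 7, 12, 16 and 22, and above them on 3, 5, 9, 14, 15, 18 and 19, some by small margins. It shares the low X median with KO3.

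Summed markers of other cell types were lower in KO1 than in WT, except those of thyroid. Of 15 leukocyte markers 4 had values, and their summed RPKM was 9.99 to 12.7 in WT and 1.34 in KO1. Most of that sum in WT came from CD3D, the 1 of them that was tested. CD3D stood at 3.05, 3.29 and 3.38 log2 RPKM in WT, had 0 reads in KO1 and was at -0.96, -2.51 and -0.47 in KO2, KO3 and KO4. Fibroblast and smooth muscle markers (4 of 12 with values) summed to 51.4 to 55.3 RPKM in WT and 20.7 in KO1, and endothelial markers (2 of 9) to 10.7 to 11.6 and 0.65. Of 10 neural markers 3 had values, summing to 32.9 to 33.7 in WT and 13.9 in KO1. The 8 epithelial markers with values summed to 601.4 to 718.6 in WT, 373.9 in KO1, and 707.6, 315.4 and 500.4 in KO2 to KO4. The 5 hepatocyte markers with values summed to 19.9 to 23.6 in WT, 0.69 in KO1 and 109 in KO2, and the 3 thyroid markers to 2.45 to 3.34 in WT and 19.3 in KO1. Most of that thyroid sum in KO1 came from DIO2 (3.96 log2 RPKM), which is also made outside the thyroid. HHEX was higher too, while PAX8 was lower in KO1 than in WT. The part of such cells in the results was not tested. In bulk libraries fewer cells that express a gene and less RNA per cell cannot be told apart.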

How the data were processed

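Total RNA of BHT-101 cells was sequenced from TruSeq libraries, per the labels' protocols. The submitters' processing notes name build hg38, the trimmer Trim Galore 0.4.1, the aligner STAR 2.5.3a, the counter HTSeq 0.11.2 and the package edgeR. Annotation, strand setting and filter are not given in the sources used here. As values, the authors deposited log2 RPKM for 13142 genes. Samples were mapped by the library numbers in the labels.

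The deposited log2 values were used as they are, with no further scaling. Symbols were matched to GENCODE v29 (12510 of 13142, 200 by an older symbol) for positions and exon lengths. With a prior count of 0.25 reads, 11575 of 12510 genes with a length came out as whole reads in all 7 libraries within 0.03 reads, which gave the library sizes. At the median length 1 RPKM stands for 291 reads. Intervals and floors (3 reads) cover counting error only.

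Linear models were fitted with limma 3.58.1 in R 4.3.3 (variance trend on the mean level, Benjamini-Hochberg over 11154 genes): KO1 against WT from 4 libraries, and KO1 against the mean of KO2, KO3 and KO4 from all 7. Both were run on simulated data in which KO1 was given the spread of the WT samples. False calls from a larger spread of KO1 itself could therefore not show there. The position-centred fit subtracts the median difference of genes within 5 Mb. Other filters, scalings, variance sources and left-out libraries were tried, and a voom fit on the recovered reads was chosen after seeing the data.

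The clone, the gene lists and the motifs were chosen with earlier results of these data known. Named genes are ASH1L, the 12 largest called differences in each direction and up to 10 against the other clones (all reaching 1 log2 RPKM where higher), up to 5 called members of each list, and a set of transcription factors; ANXA10, ABCC3, KRT7 and ARHGDIB fall outside this rule and were chosen after their values were seen. Of the called genes 198 without a proper symbol are not named, and a few genes that the rule names are not reported here.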

Additional observations from a re-analysis of the deposited data

Results flagged for a closer look

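Genes above 0 log2 RPKM in KO1 alone could not pass the level filter. Outside the tested set 103 genes were above 0 log2 RPKM in KO1 alone of the 7 libraries. At least 1 log2 RPKM in KO1, with all other libraries at or below 0, was reached by 13 genes. In KO1, BACE2, a membrane protease, stood at 2.91 log2 RPKM, PLAGL1, an imprinted zinc-finger factor, at 2.16, BNC1, a basal epithelial factor, at 1.84, and INHBA, the activin beta A chain, at 1.64. SNX10 stood at 1.49, the collagen gene COL12A1 at 1.39, the natriuretic peptide clearance receptor NPR3 at 1.35, MFAP2 at 1.27 and FSTL1 at 1.25. ARAP2 stood at 1.25, CPA4 at 1.14, SIMC1 at 1.12 and STARD13 at 1.02. Some lay only just below 0 in another library: INHBA at -0.082 and SIMC1 at -0.167 in KO4, SNX10 at -0.188 in KO2 and MFAP2 at -0.406 in WT3. The 13 genes were picked for being high in KO1 and at or below 0 elsewhere. Their difference from the other libraries is therefore a description with no test.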

How the results depend on the processing

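Against WT, position centring gave 1309 higher and 1852 lower genes, the pooled spread 104 and 420, and leaving out 1 WT sample 1151 to 2654 higher and 1934 to 3179 lower. The other filters, scalings and voom stayed within 1.5 times of the reported counts. Quantile normalization shifted the median of all tested genes by 0.088. Against the other clones there were 11 higher genes with no filter, 0 higher and 8 lower with quantile normalization, 0 and 4 on the log2(RPKM + 1) scale, 61 lower after position centring, 0 and 0 with the other clones' spread only or by voom, and 0 to 123 higher and 0 to 451 lower with 1 library left out. ASH1L was -0.23 after position centring (limma adjusted p = 0.143) and kept -0.60 with the pooled spread (limma adjusted p = 0.481). Of 207 named genes called against WT, 70 kept the call with the pooled spread. With that spread, the higher and lower calls kept were 1 of 3 and 5 of 8 for endodermal factors, 0 of 2 and 3 of 10 for epithelial defence, 2 of 9 and 2 of 5 for mesenchymal genes, 5 of 10 and 6 of 19 for matrix proteins, 2 of 9 and 2 of 11 for WNT, 1 of 6 and 6 of 10 for TGF-beta and BMP, 2 of 10 and 3 of 14 for receptor tyrosine kinases, 0 of 3 and 2 of 14 for cholesterol synthesis, and 0 of 6 and 0 of 12 for interferon-stimulated genes. Signs turned for FOXA3 with quantile normalization (0.063), and after position centring for KIF4A (0.0031), POLA1 (0.23), RPS4X (0.116) and SMYD2 (0.0038). Medians of the WNT, YAP, interferon, MHC class I, oxidative phosphorylation, ribosomal, Polycomb, protocadherin and imprinted lists changed sign under at least 1 alternative. The causes were not tested. No paired analysis was possible because KO1 is a single library and shares fewer than 2 replicate numbers with WT.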

Other observations

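Several receptors and regulators that were not named above were lower in KO1 than in WT and in the other clones; they were chosen after their values were seen. IL1R2, the decoy receptor for interleukin 1, stood at 2.34, 2.30 and 1.99 log2 RPKM in WT, -6.09 in KO1, and 2.39, 1.64 and -0.19 in KO2 to KO4. The signalling receptor IL1R1 stood at 1.90, 1.97 and 1.80 in WT, -2.91 in KO1, and 2.70, 1.66 and 0.84 in the other clones. IL4R, the interleukin 4 receptor chain, stood at -0.95 in KO1 and between 1.82 and 2.48 in every other library. HPGD, which degrades prostaglandins, stood at 5.07 to 5.40 in WT, -1.22 in KO1, and 5.61, 4.70 and 3.22 in the other clones. PAX9, a factor of the pharyngeal endoderm, stood at 2.81 to 3.15 in WT, 0.05 in KO1 and 1.5 to 1.96 in the other clones. Limma adjusted p against the other clones was 0.0236 for IL1R2, 0.0323 for IL1R1, 0.0128 for IL4R, 0.0325 for HPGD and 0.0371 for PAX9.

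Housekeeping programmes showed small median differences in KO1. Of 56 cytosolic ribosomal protein genes 8 were higher and 7 lower, of 46 nuclear oxidative phosphorylation subunits 6 and 14, and of 34 glycolysis and hypoxia genes 5 and 12, with median log2 differences of -0.02, -0.07 and -0.09. Over all tested genes 19.2% were higher and 25.0% lower. Lists of other programmes had medians on both sides of 0. Of 19 genes of MHC class I antigen presentation 3 were higher and 2 lower, of 27 p53 targets 8 and 5, of 22 cell cycle inhibitors and RB axis genes 8 and 3, and of 17 polyadenylated histone genes 8 and 4. Their medians were -0.001, 0.14, 0.27 and 0.17. Of 26 axon guidance and synapse genes 8 were higher and 13 lower, of 20 integrin and focal adhesion genes 5 and 5, of 11 imprinted genes 4 and 2, and of 3 protocadherins 1 and 2. The medians of these were -0.30, 0.11, 0.03 and -1.40. The protocadherin median, from 3 genes, became 0.34 after position centring, where PCDH7 had no value.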
